A study of Mus musculus with 8 samples.

Results

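Genes of the mitochondrial protein import machinery were examined in sorted leukaemia stem cells of mice with and without Nynrin. The members were the rows of the deposited expression table whose symbol begins with Timm or Tomm followed by a digit, together with Pam16, Dnajc19, Grpel1, Chchd4, Pmpca, Pmpcb, Samm50 and Mtx1. This rule found 34 of the 48500 rows: 33 protein-coding genes and Tomm6os, an RNA antisense to Tomm6. The 4 Nynrin-KO libraries (KO1 to KO4, genotype Nynrin-/-) were set against 4 wild-type libraries (WT1 to WT4, Nynrin+/+). All 8 came from bone marrow of mice carrying acute myeloid leukaemia (AML) driven by HOXA9 and MEIS1, a homeobox factor and its cofactor. Each library was made with the Smart-Seq V4 low-input kit from about 10000 cells gated as GFP+, c-Kit+ and Gr-1-. The labels do not state the age or sex of the mice, which part of Nynrin was deleted or whether 1 mouse gave 1 library. P-values therefore measure the spread between these libraries, which may be technical.

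Nearly all mitochondrial proteins are encoded in the nucleus, made in the cytosol and imported. The TOM complex of the outer membrane is the common entry gate. From there, proteins with a presequence pass through TIM23 and are pulled in by a motor built on the mitochondrial HSP70 chaperone, and the MPP protease removes the presequence. Carrier proteins are guided by small Tim chaperones to TIM22, beta-barrel proteins are built into the outer membrane by the SAM complex, and CHCHD4 traps small cysteine-rich proteins in the intermembrane space by forming disulphide bonds.

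Part of the import machinery was lower in Nynrin-KO. Of the 29 members that passed the filter on low values, 11 fell and 0 rose in the limma test (adjusted p under 0.05 over all 12524 genes tested). They were Tomm5, Timm8a1, Tomm20, Timm23, Chchd4, Tomm7, Tomm40, Grpel1, Timm50, Timm29 and Timm17a. Among all genes tested 13.8% fell and 14% rose by the same test, 27.9% in all, against 37.9% of the tested members. Voom on recovered reads called 14 members as lower and 0 as higher. In that fit 18.6% of all genes tested fell, and 2348 of the 12524 rose. In limma and in voom 0 members had an unadjusted p under 0.05 towards higher. The median log2 change (Nynrin-KO minus WT, on log2(FPKM + 1)) was -0.60 over the 29 members and -0.03 over all genes tested. FPKM is a level scaled for transcript length and library depth. Of the tested members 28 stood at 1 FPKM or more in all 8 libraries, so the filter, which asks for 1 FPKM in at least 4 libraries, did not choose them by direction; the other was Timm10b. The groups did not overlap for 11 members, all lower in Nynrin-KO, against 15% of all genes tested that were separated in that direction, 16.7% in the other and 31.7% in either.

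The summed level of all 34 members was 260, 322, 229 and 343 FPKM in KO1 to KO4, against 788, 557, 398 and 504 FPKM in WT1 to WT4. Every Nynrin-KO library lay below every WT library, and the Nynrin-KO mean was 51.3% of the WT mean. WT1 had the highest level of the 8 libraries for 24 of the 29 members, and KO3 the lowest for 15. These are bulk libraries, in which fewer cells of a type and less RNA per cell cannot be told apart.

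The libraries differed in further ways that bear on every value here. Depth recovered from the FPKM steps was 1.83 to 28.7 M reads (M, 1e6) in Nynrin-KO and 1.96 to 33.1 M in WT. KO3 and WT3 were the shallowest, where the members together had 930 and 1645 reads. Read numbers throughout may count both mates of a fragment. All 17 listed mature neutrophil genes had a positive log2 change and 9 rose, and their summed share of all FPKM was 40.3%, 25.4%, 29.3% and 34.4% in KO1 to KO4 and 2.04%, 13.4%, 9.93% and 19.2% in WT1 to WT4, although Gr-1-positive cells had been gated out. None of these 17 was at 0 throughout a group. Of the other markers tested, 7 of 11 macrophage, 3 of 5 mast cell and basophil, 3 of 3 erythroid and 1 of 3 B cell genes rose (12, 5, 10 and 6 were listed). The 6 T and NK cell genes did not pass the filter. The summed levels were 372 to 1037 FPKM in Nynrin-KO against 170 to 287 in WT for macrophage genes, 47.2 to 112 against 6.20 to 11.4 for mast cell and basophil genes, and 9.04 to 49.7 against 0.357 to 2.65 for erythroid genes. For B cell genes they were 20.8 to 37.8 against 20.3 to 27.6, and for T and NK cell genes 2.34 to 12.2 against 0.264 to 3.98. No listed marker was at 0 in all libraries of a group. Of the genes behind the gate, Kit stood at 2.92 to 4.91 FPKM in Nynrin-KO and 2.63 to 6.40 in WT. Ly6g, a Gr-1 antigen gene among the 17 neutrophil genes, stood at 93.5 to 264 FPKM in Nynrin-KO and 0.707 to 49.3 in WT. Hoxa9 and Meis1 rose in Nynrin-KO. The progenitor marker Cd34, which was not part of the gate, fell to 5.54 to 7.30 FPKM in Nynrin-KO, against 55.7 to 151 in WT. Nynrin was at most 0.437 FPKM in Nynrin-KO and 0.286 in WT, so its level does not check the labels. Xist, which coats the inactive X, was 0.0175 to 0.366 FPKM in KO2 to KO4 and 15.2 to 26.5 in WT, while the Y-linked Ddx3y was 18.2 to 20.7 FPKM in KO2 to KO4 and at most 0.111 in WT. KO1 held both, at 12.7 FPKM of Xist and 2.18 of Ddx3y. An effect of genotype and one of sex cannot be told apart in these libraries. With the mean log2 level of the neutrophil genes as a covariate in limma, 0 members passed and 4 had an unadjusted p under 0.05, all lower in Nynrin-KO. That fit called 4 of all 12524 genes as lower (0.0319%) and 4 as higher, so its count of 0 says nothing particular about the members. The median log2 change was -0.32 over the members there and 0.0016 over all genes tested. The share of all genes with an unadjusted p under 0.05 in that limma fit is not given here. The 4 members at that cut therefore cannot be set against it. The number that fell was 6 without KO1, 7 without KO4, 6 without WT1 and 6 without WT2, in fits where 9.29%, 10.1%, 9.26% and 8.80% of all genes tested fell. The satellite-like gene model Gm10800 stood at 28612, 3349, 126894 and 3990 FPKM in KO1 to KO4. In WT1 to WT4 it had 6076, 69970, 142258 and 37303 FPKM. With WT1 and KO1 both left out the number of members that fell was 4. Within WT2, WT3, WT4, KO1 and KO3, the 5 libraries high in Gm10800, that number was also 4. These 4 were Chchd4, Timm8a1, Tomm20 and Tomm5 each time. In the 5 libraries 3.04% of all genes tested fell, and without WT1 and KO1 7.31%.

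**Figure D1:**
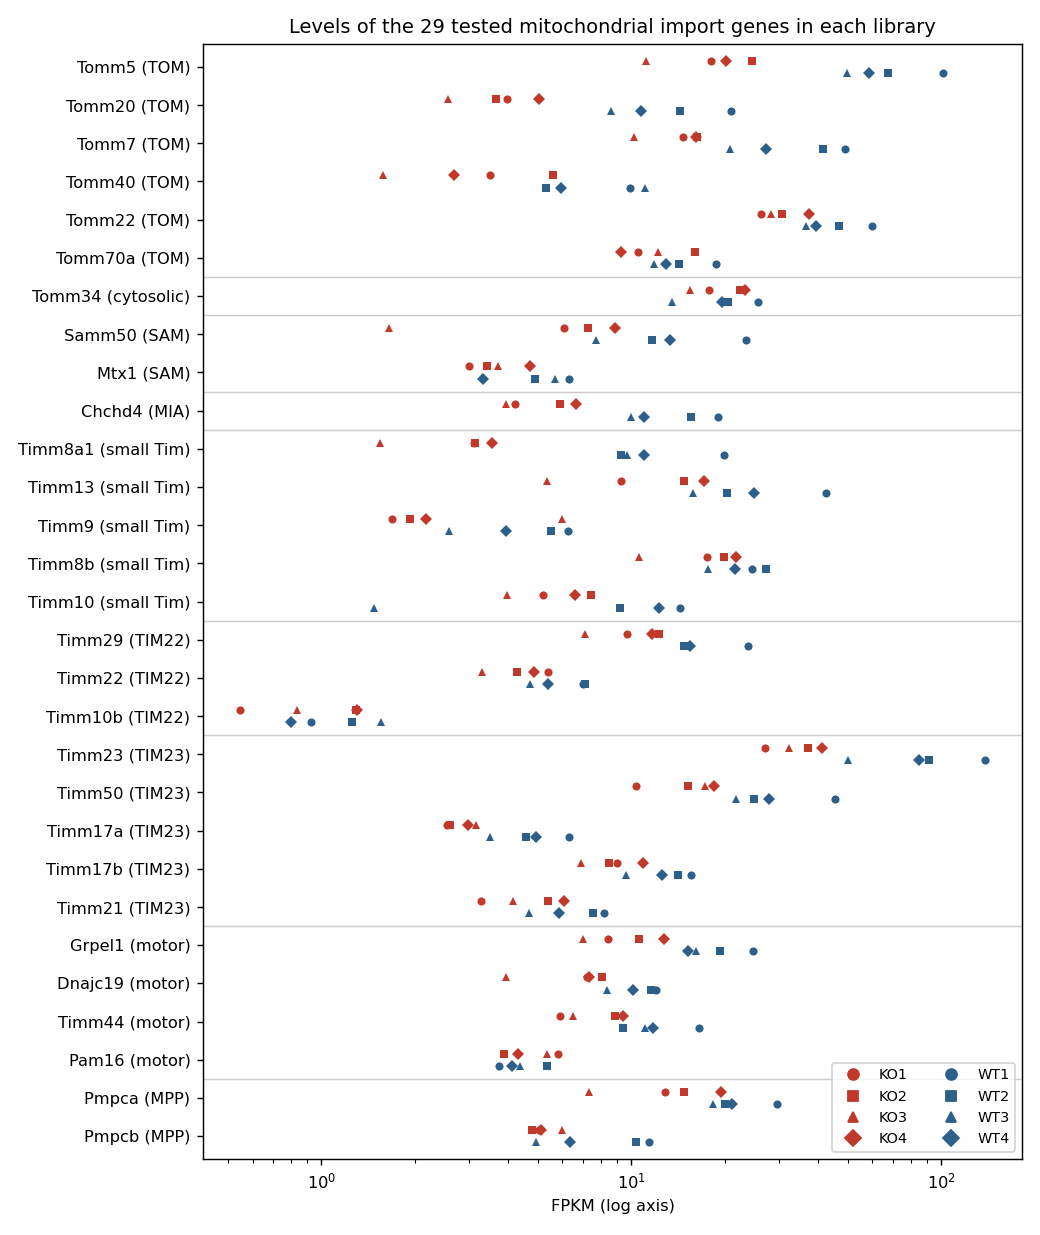
FPKM (log axis) of the 29 tested members, one row per gene, grouped by complex; red symbols above are the Nynrin-KO libraries and blue symbols below the WT libraries, with a symbol shape per replicate number. Tomm5, Tomm20, Tomm7, Chchd4, Timm8a1 and Timm23 show 4 red symbols left of all 4 blue ones, while Tomm34, Pam16 and Timm10b are intermixed.

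Of the 6 tested TOM members 4 fell, with a median log2 change of -1.12, as did 3 of 5 in TIM23 (-0.59). So did 1 of 4 in the motor (-0.61), 1 of 3 in TIM22 (-0.37) and 1 of 5 small Tims (-0.57). Over all genes tested 13.8% fell, so 1 call among so few members is no result about a complex. Chchd4 fell. In the reported limma fit and in voom 0 of 2 MPP and 0 of 2 SAM members passed, though Pmpca and Samm50 had an unadjusted p under 0.05 in limma. In other limma fits Samm50 passed with the replicate number as a block, with Gm10800 as a covariate and without WT3 and KO3. Pmpca passed with Gm10800 as a covariate, and Pmpcb without WT3 and without WT3 and KO3. Tomm5 (mm10 chromosome 4, 45105208 to 45108114), a small subunit that steadies the TOM channel, stood at 18.2, 24.6, 11.1 and 20.2 FPKM in KO1 to KO4, against 101, 67.6, 49.7 and 58.6 FPKM in WT1 to WT4. The highest Nynrin-KO library was below the lowest WT library, and the log2 change was -1.85 (SE 0.29, adjusted p = 0.00318, limma). Its reads in KO3 numbered 15, so that single level is imprecise. Tomm7, another small subunit, had 14.7, 16.3, 10.2 and 16.2 FPKM in KO1 to KO4, against 48.8, 41.6, 20.8 and 27.1 FPKM in WT1 to WT4. The groups were again separate, with WT3 closest to the Nynrin-KO range (log2 change -1.16, SE 0.29, adjusted p = 0.0172, limma). The call was lost without WT2 (log2 change between -1.37 and -0.97 over the fits without 1 library). Tomm6, the third small subunit, was listed at 0.0672 FPKM or less in Nynrin-KO and 0.117 or less in WT, and was not tested. Its annotated gene shares 1648 bases with Gm21981 on the same strand, and the counting rule for shared sequence is unknown here.

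Tomm20 (mm10 chromosome 8, 126930667 to 126945844) encodes the receptor that first binds presequences. Its level was 3.96, 3.67, 2.57 and 5.03 FPKM in KO1 to KO4, against 21.01, 14.3, 8.63 and 10.7 FPKM in WT1 to WT4. No Nynrin-KO library reached the WT range, and the log2 change was -1.56 (SE 0.27, adjusted p = 0.00459, limma). Tomm22, the central receptor that hands proteins from Tomm20 to the channel, had 26.3, 30.7, 28.3 and 37.6 FPKM in KO1 to KO4, against 60.0, 46.7, 36.7 and 39.5 FPKM in WT1 to WT4. Its groups overlapped at KO4 and WT3, and it did not pass the threshold (log2 change -0.55, SE 0.21, adjusted p = 0.081, limma). Tomm70a, the receptor for carrier proteins, ranged from 9.30 to 16.1 FPKM in Nynrin-KO and from 11.9 to 18.8 in WT (log2 change -0.26, adjusted p = 0.405, limma).

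Within each library the ratio of Tomm20 to Tomm22 was lower in Nynrin-KO. The log2 ratio of (FPKM + 1) was -2.46, -2.76, -3.04 and -2.68 in KO1 to KO4, against -1.47, -1.64, -1.97 and -1.79 in WT1 to WT4. The groups were separate, with a difference of -1.02 and an exact two-sided permutation p = 0.0286. That is the smallest p that 70 arrangements of 4 against 4 can give, and it became 0.0714 after Benjamini-Hochberg adjustment over the 10 pairs compared, which misses the threshold.

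The upstream sequences of these receptors are shown with those of Chchd4 and Timm8a1, chosen after their values were seen: both receptors, and members with clear falls, each with a motif match and no other annotated gene in the window. RefSeq's table on GRCm38.p6 (mm10) was matched by symbol for 31 of the 34 members. Each stretch is the gene's own strand, 5′ to 3′, upstream of both the RefSeq and the GENCODE start, and capitals mark matches to the E-box, NRF1 and ETS motifs; CCAAT and the GC box, searched as well, are left in lower case. All motifs were searched on both strands.
Tomm20, minus strand, chr8:126945922-126946171: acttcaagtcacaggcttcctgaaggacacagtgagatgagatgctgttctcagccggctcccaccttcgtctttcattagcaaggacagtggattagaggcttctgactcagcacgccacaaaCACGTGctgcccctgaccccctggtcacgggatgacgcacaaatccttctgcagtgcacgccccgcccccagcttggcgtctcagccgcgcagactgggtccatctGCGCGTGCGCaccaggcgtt
Tomm22, plus strand, chr15:79670618-79670860: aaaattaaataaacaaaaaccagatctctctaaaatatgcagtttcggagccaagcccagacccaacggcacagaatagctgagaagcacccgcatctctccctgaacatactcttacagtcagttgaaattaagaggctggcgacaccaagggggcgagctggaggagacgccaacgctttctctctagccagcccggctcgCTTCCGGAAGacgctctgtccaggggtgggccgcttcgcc
Chchd4, minus strand, chr6:91473547-91473673: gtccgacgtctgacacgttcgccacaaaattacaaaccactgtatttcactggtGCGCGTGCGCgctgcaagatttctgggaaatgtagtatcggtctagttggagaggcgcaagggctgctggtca
Timm8a1, minus strand, chrX:134541866-134541920: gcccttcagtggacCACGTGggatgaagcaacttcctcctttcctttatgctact

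In these stretches, the E-box CACGTG, the sequence read by MYC and its relatives, begins 126 bases before the RefSeq start of Tomm20 and 236 bases before that of Timm8a1. The NRF1 motif, GCGCA and GCGC with any 1 base between them, begins 20 bases before the start of Tomm20 and 196 before that of Chchd4. Tomm22 holds the ETS motif CCGGAAG on both strands in overlapping copies, beginning 47 and 44 bases before its start. Over the 250 bases before the start, the ETS motif was found in 11 of the 27 tested members with a promoter in the table (40.7%), against 17.4% of 7852 tested genes and 7.83% of all 27025 symbols in the table. The E-box was found in 3 of the 27 (11.1%, against 10.3% of tested genes and 6.86% of all), and NRF1 also in 3 (11.1%, against 10.1% and 4.23%). CCAAT was found in 29.6% of the tested members (41.3% and 37.5%), the GC box GGGCGG in 63.0% (62.3% and 35.4%), and the YY1 motif AAGATGGCG in 0 members (1.64% and 0.710%). These matches describe letters in this window and no binding.

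Tomm40 (mm10 chromosome 7, 19701313 to 19715438) encodes the beta-barrel channel itself. It stood at 3.51, 5.58, 1.58 and 2.67 FPKM in KO1 to KO4, against 9.88, 5.31, 11.1 and 5.94 FPKM in WT1 to WT4. KO2 lay above WT2, so the groups overlapped, and this was the sole called member of which that was true (log2 change -1.09, SE 0.32, adjusted p = 0.0333, limma). It passed in 3 of the 8 fits without 1 library, those without KO2, WT2 or WT4, and its log2 change lay between -1.32 and -0.87 over the 8. Its relative Tomm40l was at 0.940, 0.598, 0.232 and 0.976 FPKM in KO1 to KO4, against 1.45, 0.540, 0.433 and 0.825 FPKM in WT1 to WT4. It did not pass the filter, and the ranges overlapped. Tomm20l, listed at 0 in KO2, KO3 and WT3 and at most 0.894 FPKM elsewhere, was not tested either. Tomm34, a cytosolic cochaperone that accompanies precursors, had 15.5 to 23.3 FPKM in Nynrin-KO and 13.5 to 25.7 FPKM in WT. Its log2 change was 0.01 (SE 0.23, adjusted p = 0.985, limma), and its sign turned with median centring (-0.0498) but not with TMM scaling or quantile normalization.

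Of the SAM members, Samm50, the core that inserts beta-barrels, had 1.66 to 8.84 FPKM in Nynrin-KO and 7.71 to 23.6 FPKM in WT. The overlap was at WT3, and the gene did not pass the threshold (log2 change -1.17, SE 0.45, adjusted p = 0.0815, limma). KO3, with 14 reads, was the lowest library. Mtx1, a metaxin on the cytosolic face of SAM, had 3.0005, 3.43, 3.72 and 4.70 FPKM in KO1 to KO4, against 6.30, 4.89, 5.67 and 3.34 FPKM in WT1 to WT4. WT4 lay within the Nynrin-KO range (log2 change -0.35, adjusted p = 0.235, limma).

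Chchd4 (mm10 chromosome 6, 91462172 to 91473546), the oxidoreductase of the intermembrane space known in yeast as Mia40, fell. It had 4.22, 5.87, 3.94 and 6.62 FPKM in KO1 to KO4, against 19.0, 15.6, 9.98 and 11.0 FPKM in WT1 to WT4. The groups were separate by a wide margin (log2 change -1.25, SE 0.24, adjusted p = 0.00634, limma). Genes for its substrates, proteins with paired cysteine motifs, were counted from a list of 22, of which 21 were tested. Of these 7 fell and 0 rose, where 13.8% of all genes tested fell and 14% rose. The median log2 change was -0.66, against -0.03 over all genes tested. Voom, where 18.6% of all genes tested fell, called 8 lower and 0 higher, and 1 of the 21 had an unadjusted p under 0.05 towards higher in limma. Chchd2 averaged 88.2 ± 15.3 FPKM in Nynrin-KO and 230 ± 28.5 in WT (SD, n = 4 each, log2 change -1.38, adjusted p = 0.00231, limma). Cox6b1, a subunit of cytochrome c oxidase, averaged 140 ± 27.2 FPKM in Nynrin-KO and 411 ± 128 in WT (log2 change -1.51), and the cristae protein gene Chchd3 and Chchd7 fell with log2 changes of -0.95 and -0.75. Coa4, a cytochrome oxidase assembly factor, had the unadjusted p under 0.05 in the other direction, at 10.6 to 16.9 FPKM in Nynrin-KO and 5.04 to 10.6 in WT (log2 change 0.69, adjusted p = 0.0536, limma). It was chosen for naming after its values were seen.

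The small Tim chaperones work as hexamers of paired proteins. All 5 tested had a negative log2 change; Timm8a1 fell in limma, and Timm8a1, Timm13 and Timm9 fell in voom. Timm8a1 (mm10 chromosome X, 134537256 to 134541865), whose human counterpart is the gene of a deafness and dystonia syndrome, stood at 3.12, 3.14, 1.54 and 3.56 FPKM in KO1 to KO4, against 19.9, 9.25, 9.68 and 11.0 FPKM in WT1 to WT4. Every Nynrin-KO library was under every WT library, and the log2 change was -1.78 (SE 0.28, adjusted p = 0.00299, limma). An effect of sex on this X-linked gene was not tested. Behind the value in KO3 were 4 reads. Timm8b, the relative that also pairs with Timm13 proteins, had 17.5, 19.9, 10.6 and 21.7 FPKM in KO1 to KO4, against 24.5, 27.3, 17.7 and 21.6 FPKM in WT1 to WT4. Its ranges overlapped (log2 change -0.40, SE 0.25, adjusted p = 0.261, limma).

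The log2 ratio of Timm8a1 to Timm8b was -2.17, -2.34, -2.19 and -2.32 in KO1 to KO4, against -0.29, -1.46, -0.81 and -0.91 in WT1 to WT4. The Nynrin-KO libraries were close together and all below WT, with a difference of -1.38 (exact two-sided permutation p = 0.0286, the smallest possible, 0.0714 adjusted over the 10 pairs). Timm8a2, a further relative, was at most 0.231 FPKM in Nynrin-KO and 0.558 in WT and was not tested.

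Timm13, the partner of the Timm8 proteins, had 9.30, 14.8, 5.36 and 17.2 FPKM in KO1 to KO4, against 42.5, 20.3, 15.8 and 24.8 FPKM in WT1 to WT4. KO4 lay above WT3, and the gene missed the threshold (log2 change -1.10, SE 0.39, adjusted p = 0.0626, limma). The log2 ratio of Timm13 to Timm8a1 was 1.32, 1.93, 1.32 and 1.999 in KO1 to KO4, against 1.06, 1.06, 0.65 and 1.10 in WT1 to WT4, higher in all 4 Nynrin-KO libraries (difference 0.68, exact two-sided permutation p = 0.0286, 0.0714 adjusted over the pairs). In that sense Timm8a1 was lower relative to both its relative and its partner, though neither ratio passed after adjustment. Every separated pair got the same adjusted p, since none could reach a raw p under 0.0286 (exact permutation test). The adjusted p therefore does not grade these ratios by the size of their difference.

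Timm9 and Timm10, which form the main carrier chaperone, were low and rested on few reads in the shallow libraries. Timm9 had 1.69, 1.93, 5.98 and 2.17 FPKM in KO1 to KO4, against 6.26, 5.51, 2.58 and 3.94 FPKM in WT1 to WT4. KO3 was high and WT3 low against their own groups (log2 change -0.57, adjusted p = 0.248, limma), and with WT3 and KO3 left out the gene passed. Timm10 had 5.20, 7.42, 3.97 and 6.56 FPKM in KO1 to KO4, against 14.3, 9.22, 1.48 and 12.3 FPKM in WT1 to WT4. WT3, with 2 reads, was the lowest of all libraries, and the other 3 WT libraries lay above every Nynrin-KO library (log2 change -0.35, SE 0.53, adjusted p = 0.657, limma). Timm10 passed without WT3, and also without WT3 and KO3. Its log2 change lay between -0.94 and -0.063 over the fits without 1 library. The ratio of Timm9 to Timm10 overlapped between the groups (difference in log2 ratio -0.22, exact two-sided permutation p = 0.629).

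**Figure D2:**
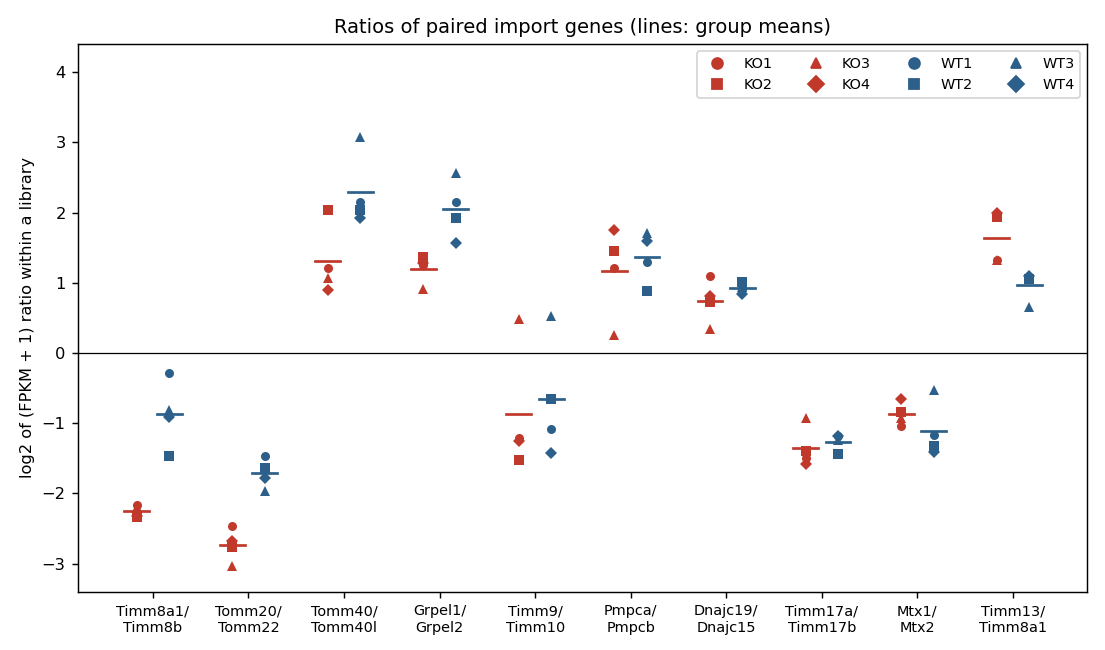
Log2 ratio of (FPKM + 1) of 2 import genes within each library for 10 pairs, with Nynrin-KO in red left of WT in blue, lines at the group means and a symbol shape per replicate number. Timm8a1 to Timm8b, Tomm20 to Tomm22 and Grpel1 to Grpel2 are lower, and Timm13 to Timm8a1 higher, in every Nynrin-KO library, with an exact permutation p of 0.0286 each and 0.0714 after adjustment over the pairs.

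In TIM22, the insertase of carrier proteins, Timm29, a subunit found in animals, fell. It ranged from 7.08 to 12.3 FPKM in Nynrin-KO and from 14.8 to 23.9 FPKM in WT, with no overlap (log2 change -0.70, SE 0.23, adjusted p = 0.0456, limma). The call was lost in each of the 8 fits that left out 1 library, where the log2 change lay between -0.80 and -0.55. Timm22, the channel, had 3.30 to 5.39 FPKM in Nynrin-KO and 4.70 to 7.07 in WT (log2 change -0.37, adjusted p = 0.181, limma). Timm10b, the small Tim bound to TIM22, was the lowest tested member, at 0.548, 1.30, 0.836 and 1.30 FPKM in KO1 to KO4, against 0.923, 1.25, 1.56 and 0.798 FPKM in WT1 to WT4. Its groups were intermixed (log2 change -0.10, adjusted p = 0.786, limma), and its gene shares 3086 bases with Gm45799 on the same strand.

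TIM23 carries presequence proteins into the matrix. Timm23 (mm10 chromosome 14, 32180162 to 32201898), its channel, was the member with the highest mean level in both groups, at 26.98, 37.2, 32.2 and 41.4 FPKM in KO1 to KO4, against 139, 91.3, 49.96 and 85.0 FPKM in WT1 to WT4. The groups were separate, and WT3 was nearest to Nynrin-KO (log2 change -1.31, SE 0.30, adjusted p = 0.0131, limma). Timm50, the receptor that takes presequences from TOM, ranged from 10.4 to 18.6 FPKM in Nynrin-KO and from 21.9 to 45.5 FPKM in WT and also fell (log2 change -0.90, SE 0.27, adjusted p = 0.0351, limma). Timm50 passed in 2 of the 8 fits without 1 library, those without KO3 or WT3 (log2 change between -1.02 and -0.68 over the 8), and Timm23 in all 8.

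The alternative core subunits Timm17a and Timm17b had overlapping ratios in both groups. Timm17a had 2.55, 2.61, 3.16 and 2.97 FPKM in KO1 to KO4, against 6.29, 4.58, 3.50 and 4.94 FPKM in WT1 to WT4, with no overlap (log2 change -0.59, SE 0.18, adjusted p = 0.0368, limma). It also passed only without KO3 or WT3 among those 8 fits (log2 change between -0.71 and -0.48). X-linked Timm17b had 8.99, 8.49, 6.90 and 10.9 FPKM in KO1 to KO4, against 15.5, 14.2, 9.63 and 12.5 FPKM in WT1 to WT4, where KO4 overlapped WT3 (log2 change -0.51, SE 0.20, adjusted p = 0.0866, limma). Their log2 ratio averaged -1.35 ± 0.29 in Nynrin-KO and -1.26 ± 0.12 in WT (SD, n = 4 each, exact permutation p = 0.657), a difference of -0.08 that does not show the ratios to be equal. Timm21, which links TIM23 to TOM and to the respiratory chain, had 3.29 to 6.08 FPKM in Nynrin-KO and 4.68 to 8.17 in WT (log2 change -0.40, adjusted p = 0.209, limma).

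**Figure D3:**
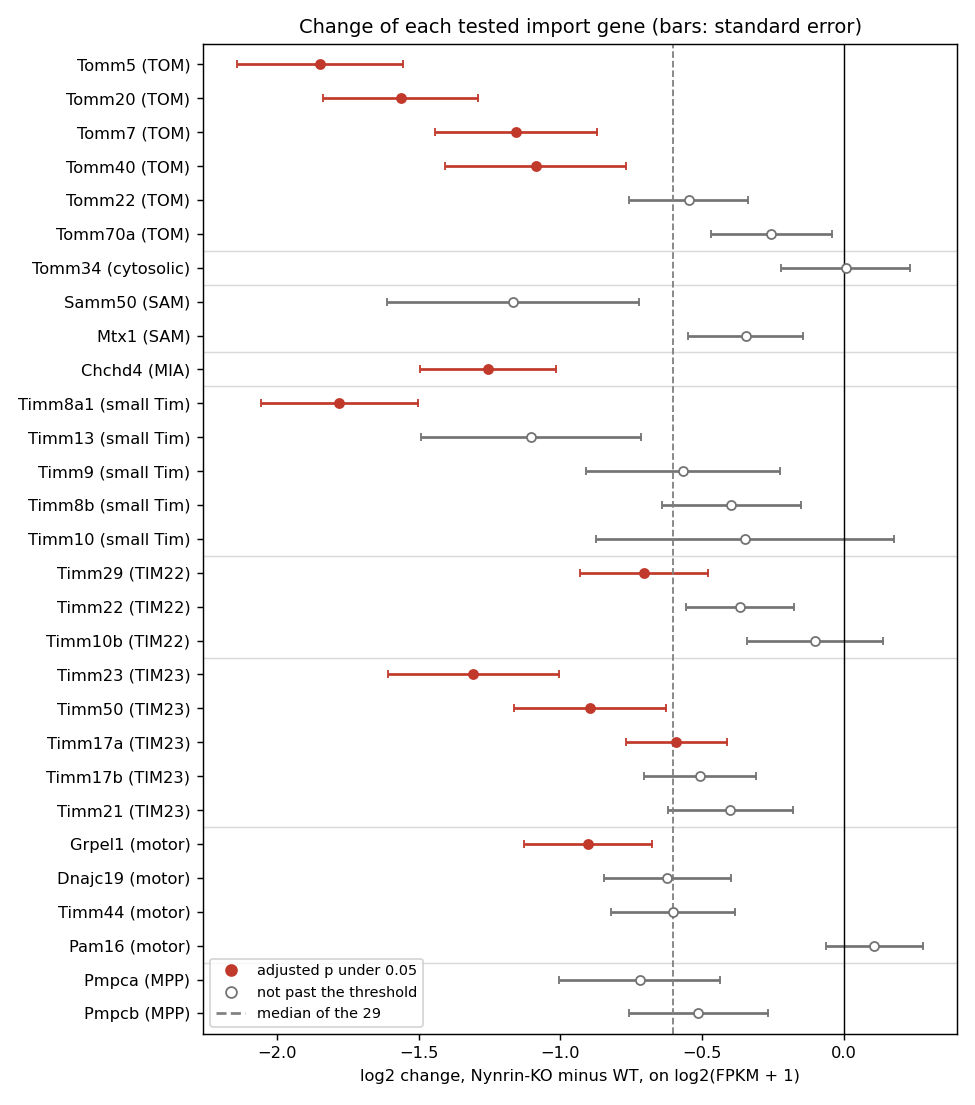
Log2 change on log2(FPKM + 1), Nynrin-KO minus WT, of the 29 tested members grouped by complex, with standard errors as bars; filled red points passed an adjusted p of 0.05. The points run from -1.85 for Tomm5 to 0.11 for Pam16, with the dashed median at -0.60.

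In the import motor, Grpel1 (mm10 chromosome 5, 36464998 to 36474080), which exchanges nucleotide on mitochondrial HSP70, fell to 8.40, 10.6, 6.98 and 12.7 FPKM in KO1 to KO4, against 24.7, 19.4, 16.2 and 15.2 FPKM in WT1 to WT4. The groups were separate (log2 change -0.90, SE 0.23, adjusted p = 0.0181, limma). The call was lost without KO1, WT1 or WT2, and the log2 change lay between -1.03 and -0.77 over the fits without 1 library. Grpel2, its stress-linked relative, which is no member by the rule, averaged 3.59 ± 0.751 FPKM in Nynrin-KO and 3.88 ± 1.34 in WT (SD, n = 4 each, log2 change -0.05, adjusted p = 0.902, limma). The log2 ratio of Grpel1 to Grpel2 was 1.25, 1.37, 0.91 and 1.28 in KO1 to KO4, against 2.15, 1.92, 2.57 and 1.56 in WT1 to WT4, lower in every Nynrin-KO library (difference -0.85, exact two-sided permutation p = 0.0286, 0.0714 adjusted over the pairs).

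Dnajc19, the J-protein that stimulates HSP70 at the channel, had 7.18, 8.07, 3.94 and 7.31 FPKM in KO1 to KO4, against 12.1, 11.6, 8.36 and 10.1 FPKM in WT1 to WT4. The groups were separate, yet the gene missed the threshold (log2 change -0.62, SE 0.22, adjusted p = 0.0663, limma). The ratio to its relative Dnajc15 overlapped between groups (difference in log2 ratio -0.19, exact two-sided permutation p = 0.314). Timm44, which tethers HSP70 to the channel, had 5.90 to 9.42 FPKM in Nynrin-KO and 9.39 to 16.6 in WT (log2 change -0.60, SE 0.22, adjusted p = 0.0679, limma), and KO4 and WT2 nearly coincided. Pam16, a J-like protein that holds Dnajc19 in check, stood at 3.87 to 5.81 FPKM in Nynrin-KO and 3.74 to 5.36 in WT, with the highest log2 change of the tested members (0.11, SE 0.17, adjusted p = 0.672, limma). Within the motor Grpel1 passed in limma. Dnajc19 passed in voom, with array weights, with the replicate number as a block, with Gm10800 as a covariate and without WT3 and KO3. Its adjusted p over all alternatives was 0.00858 to 0.466 (limma or voom). Timm44 passed with quantile normalization and with Gm10800 as a covariate. Apart from the pair ratios, differences among the members were not tested.

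Of the MPP peptidase, Pmpca, the alpha subunit, had 12.9, 14.8, 7.33 and 19.5 FPKM in KO1 to KO4, against 29.5, 20.01, 18.4 and 21.2 FPKM in WT1 to WT4. Pmpcb, the catalytic beta subunit, had 5.03, 4.77, 5.96 and 5.12 FPKM in KO1 to KO4, against 11.4, 10.4, 4.93 and 6.33 FPKM in WT1 to WT4. Both overlapped between the groups at WT3 and missed the threshold, with log2 changes of -0.72 and -0.51 (adjusted p = 0.0888 and 0.151, limma). Their log2 ratio differed by -0.21 (exact two-sided permutation p = 0.657).

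Partners outside the rule were counted from a list of 20, of which 18 were tested. Of these 7 fell and 0 rose, where 13.8% of all genes tested fell and 14% rose. The median log2 change was -0.61, and 17 of the changes were negative, as were 6493 of the 12524 over all genes tested. By voom, where 18.6% of all genes tested fell, 9 partners fell and 0 rose. In both fits 0 partners had an unadjusted p under 0.05 towards higher. The mitochondrial HSP70 gene Hspa9, the engine of the motor, had 20.1, 21.3, 19.4 and 26.3 FPKM in KO1 to KO4, against 158, 86.6, 57.3 and 73.1 FPKM in WT1 to WT4 (log2 change -1.96, adjusted p = 0.00279, limma). Its log2 change was more negative than that of every tested member, a difference that was not tested. The chaperonin genes Hspd1 and Hspe1, which fold imported proteins, fell with log2 changes of -2.17 and -1.68, and Mtch2, an outer membrane insertase, with -0.80. Of 12 mitochondrial protease and quality control genes, all tested, 4 fell and 0 rose, beside the same 13.8% and 14% of all genes tested. Their median log2 change was -0.19. Voom also gave 4 lower and 0 higher, with 1 gene at an unadjusted p under 0.05 towards higher in voom and 0 in limma. The 4 were the prohibitin genes Phb2 and Phb (log2 changes -1.86 and -1.45), the matrix protease gene Clpp (-1.39) and Afg3l2 (-0.52).

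Processed pseudogenes limit what a single level means for some members. A search of annotated transcripts found 20 pseudogenes with at least 300 aligned bases at 90% identity or more, spread over 8 members, and 10 of them resemble Tomm20. Gm14494, 99.5% identical to Tomm20 over 435 bases, had 5.09, 3.99, 2.52 and 6.09 FPKM in KO1 to KO4, against 20.3, 15.6, 21.1 and 12.1 FPKM in WT1 to WT4. It fell as well (log2 change -1.77, SE 0.26, adjusted p = 0.00253, limma), and WT3 was its highest library but the lowest WT library for Tomm20. KO3 and WT3 had 2 and 18 reads of it. Gm7180, 96.3% identical to Timm17a over 516 bases, went the other way, with 9.25, 6.76, 12.8 and 8.29 FPKM in KO1 to KO4, against 2.71, 5.78, 2.98 and 5.77 FPKM in WT1 to WT4. Its groups were separate and higher in Nynrin-KO (log2 change 0.98, SE 0.27, adjusted p = 0.0257, limma), where Timm17a itself fell. KO3 and WT3 had 12 and 3 reads of Gm7180. Timm23 has 4 such copies, together 1.71 FPKM in Nynrin-KO and 3.53 in WT, and Timm8a1 has Gm9797, identical over 612 bases and at 0.328 FPKM on average in Nynrin-KO and 0.992 in WT. The assignment of reads that match several genes is not stated by the labels, so the split between a member and its copies is uncertain.

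**Figure D4:**
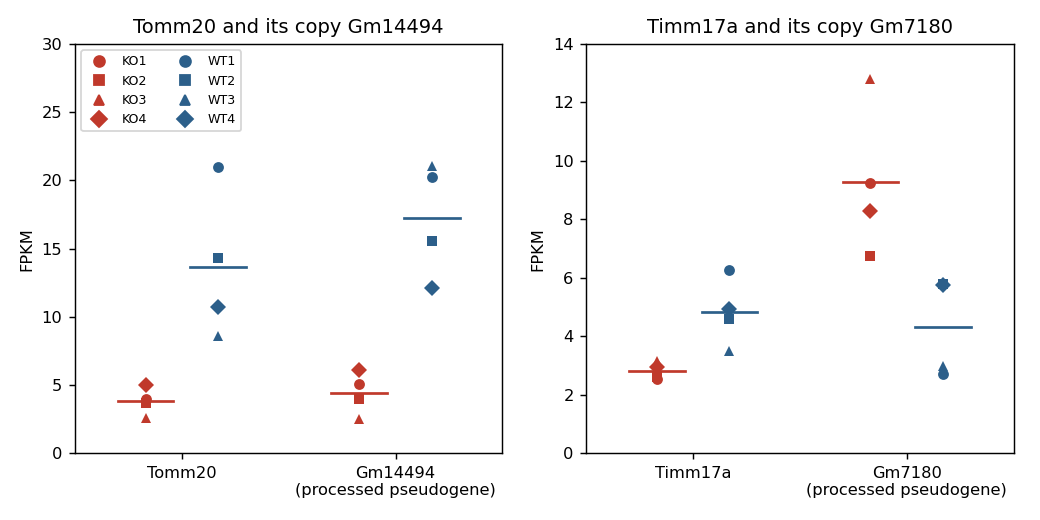
FPKM of Tomm20 and its processed pseudogene Gm14494 (left) and of Timm17a and its processed pseudogene Gm7180 (right) in each library, Nynrin-KO in red left of WT in blue, lines at the group means. Tomm20 and Gm14494 are both lower in every Nynrin-KO library, while Gm7180 is higher in every Nynrin-KO library and Timm17a lower.

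Of the 5 members that were not tested, Tomm40l, Tomm20l, Tomm6, Timm8a2 and Tomm6os, the last was at most 0.0358 FPKM in Nynrin-KO and 0.0985 in WT. In the fit with no filter, which tested all 34, none of these 5 passed. Tomm40l had 241 reads in Nynrin-KO and 315 in WT, and the other 4 had at most 6 reads in Nynrin-KO and 14 in WT, where a difference was not detectable at this depth.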

How the data were processed

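The authors deposited 1 table with a value per gene and library and no unit in its header. It was read as FPKM, since values multiplied by the longest transcript of each gene (GENCODE M21) add up almost equally in all 8 libraries. Steps in the deposited FPKM values gave whole reads for 99.4% to 99.5% of values checked (tolerance 0.1 read). Values worth 2 reads were commoner than those worth 1, as paired mates would give. Where both mates were counted, 1 fragment stands as 2 reads, so the read numbers and depths given here may overstate the fragments. Per the submitters' processing notes the build was mm10 and the tools Bowtie 0.12.9, Cufflinks 2.1.1 and HTSeq; their roles, strandedness and multi-mapping were not stated. Identifiers matched GENCODE M21 for 99.6% of genes.

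The filter kept genes reaching 1 FPKM in 4 or more libraries (the smaller group's size where libraries were left out). The test was limma (version 3.58.1, R 4.3.3) on log2(FPKM + 1), group only, trend and robust, two-sided, Benjamini-Hochberg over all genes; this scale understates changes at low level. Pair ratios had exact permutation tests. Copies were sought with BLAST+ 2.17.0. Plots used matplotlib 3.10.9. Values in every library are given for the 8 members of smallest adjusted p, for pair members and for the highest and lowest level. Members, lists, pairs and alternatives were chosen with earlier results of these data known. The fit was tested on simulated data. Same-numbered libraries did not deviate together throughout (r = -0.21, -0.39, 0.33 and 0.01 for numbers 1 to 4). With 4 libraries per group these values cannot exclude pairing or a shared batch. The reported test used no pairing.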

Additional observations from a re-analysis of the deposited data

Results flagged for a closer look

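Within groups of 4 libraries, 4 of the 78 groups checked held a library far from the other 3. Chance alone flags about 1 in 20, so this number is close to that of chance alone. Dnajc19 was 3.94 FPKM in KO3, against 7.18 to 8.07 FPKM in the other Nynrin-KO libraries. Timm29 was 23.9 FPKM in WT1, with 14.8 to 15.5 FPKM in the other WT libraries. The log2 ratio of Timm9 to Timm10 was 0.49 in KO3 and -1.52 to -1.21 in the other Nynrin-KO libraries. The log2 ratio of Timm13 to Timm8a1 was 0.65 in WT3 and 1.06 to 1.10 in the other WT libraries. KO3 and WT3 are the shallowest libraries and WT1 is the deepest.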

How the results depend on the processing

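The number of members that fell was 11 by the reported test. It was also 11 with a pseudocount of 0.1 or 0.5, a filter on the mean, TMM scaling or median centring. It was 14 with quantile normalization or voom, where 14.7% and 18.6% of all genes tested fell. It was 5 with no filter, 20 with Gm10800 as a covariate and 0 with the neutrophil level as a covariate, in fits where 1.87%, 20.6% and 0.0319% of all genes tested fell, against 13.8% as reported. It was 4 without WT1 and KO1 and 4 in the 5 libraries high in Gm10800. It was 4 or 18 at thresholds of 0.01 or 0.1 (shares of all genes not given here), with the same totals called each time. Over fits without 1 library it ranged from 6 to 12, and Tomm5, Timm8a1, Tomm20, Timm23 and Chchd4 passed in all 8. The median log2 change ranged from -0.76 to -0.48 there. With the replicate number as a block 9 fell, 7 of them among the 11, in a fit where 11.8% of all genes tested fell. Signs turned for members that missed the threshold. Tomm34 was -0.0498 with median centring, -0.17 with Gm10800 as a covariate, -0.0498 without WT3 and KO3, and -0.0814 in the 5 libraries. Timm10b was 0.0437 with array weights, 0.23 with voom and 0.0236 without WT3 and KO3. Pam16 was -0.0829, Tomm70a 0.13, Timm10 0.18 and Mtx1 0.0165 with the neutrophil covariate, and Pam16 was -0.0289 without WT1 and KO1. In the 5 libraries the difference in log2 ratio was 0.0820 for Timm17a to Timm17b and 0.16 for Timm9 to Timm10. Without 1 library, Tomm34 ranged from -0.15 to 0.14, Timm10b from -0.18 to 0.0139, the Timm9 to Timm10 difference from -0.67 to 0.18 and the Pmpca to Pmpcb difference from -0.40 to 0.0942. The cause was not tested. KO3 and WT3 limit members with few reads.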
